A study of Mus musculus with 17 samples.

Results

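Chromatin accessibility was examined at 9 genes of the JAK-STAT pathway in B cells: the kinases Jak1 and Jak2, the transcription factors Stat3, Stat4, Stat5a, Stat5b and Stat6, and the inhibitors Socs1 and Socs3. A region was taken as a member when the deposited table named 1 of these genes as its nearest transcript or as its nearest transcription start. This gave 91 of the 66177 accessible regions in the table, with 18 for Jak1, 16 for Jak2, 4 for Stat3, 15 for Stat4, 4 for Stat5a, 12 for Stat5b, 2 for Stat6, 12 for Socs1 and 8 for Socs3. In 16 regions the nearest transcript and the nearest start belonged to different genes, and such a region is described under the member gene whose start is nearest, where that start belongs to a member. Of the 91 regions, 12 were annotated as promoter (13.2%, against 21.7% of all regions), 51 lay elsewhere inside genes and 28 lay outside genes. Their median width was 517 bp, against 510 bp for all regions, and 89 had a mean of at least 1 RPPM, the unit of every level given here, which is the reads in a region scaled to all reads in regions of the library.

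ATAC-seq reads mark DNA that a transposase can reach. The 16 libraries covered naive B cells (nB, sorted as B220+ GL7- Fas-) and germinal center B cells (GCB, B220+ GL7+ Fas+ PE+) of lymph nodes, and bone marrow plasma cells (BMPC, CD138+), each made from 3000 to 5000 sorted cells. Dnmt3-deficient mice (KO) carried floxed alleles of the DNA methyltransferases Dnmt3a and Dnmt3b and a cre that deletes them in B cells. Dnmt3-sufficient littermates (C) carried the same floxed alleles without cre. The mice, of a mixed B6;129S4 background with the alleles Dnmt3atm3.1Enl and Dnmt3btm5.1Enl by the labels (the study's methods name another Dnmt3a allele), were 8 to 12 weeks old, and GCB and BMPC were taken 30 days after immunization with phycoerythrin (PE). There were 3 C and 2 KO nB libraries, each of 1 male mouse, 2 C and 4 KO GCB libraries, each a pool of 2 mice, and 3 C and 2 KO BMPC libraries, each of 1 female mouse. By the paper, nB came from unimmunized mice, so immunization and cell type cannot be told apart in any comparison with nB. Sex and cell type cannot be told apart between nB and BMPC, and BMPC also differ from the others in tissue. The GCB pools were 1 female and 1 male in C and 3 female and 1 male in KO.

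Cytokine receptors without enzyme activity of their own hold JAK kinases, which phosphorylate STAT proteins when a cytokine binds. STAT dimers then enter the nucleus and bind DNA with the palindrome TTCNNNGAA, where N is any base. Among their targets are Socs genes, whose products bind JAKs and receptors and dampen the signal. In B cells this pathway carries the signals of IL-4 through STAT6, of IL-21, IL-6 and IL-10 mainly through STAT3, and of IL-2 and IL-7 mainly through STAT5, and STAT3 is known for its part in plasma cell differentiation.

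Reads in regions numbered 4104875 to 6079018 in nB, 907959 to 2280954 in GCB and 5357687 to 8232313 in BMPC libraries, so a floor of 3 reads stood at 0.364 RPPM in the deepest and 3.30 RPPM in the shallowest library. GCB values therefore carry the largest counting error, and mitochondrial DNA took up to 10.1% of the reads there, against as little as 2.56% in BMPC. The start regions of several markers separated the sorted cells. In C libraries the region at the start of Fcer2a (CD23) averaged 42.4 RPPM in nB and 1.20 in BMPC, that of Gcsam averaged 20.95 in GCB and at most 5.49 in the others, and that of Tnfrsf17 (BCMA) averaged 20.0 in BMPC and at most 1.35 in the others. Not all markers followed this: the start regions of the GCB markers Fas and S1pr2 were highest in BMPC (31.2 and 39.3 RPPM, against 20.6 and 26.2 in GCB), and that of the nB marker Cr2 averaged 42.8 in both nB and GCB. No region covered the start of any of 4 T cell or 3 erythroid markers, and 1 of 5 myeloid markers had a start region (Itgam, 4.04 RPPM in C nB and 1.14 in C BMPC). The BMPC marker Sdc1 (CD138) and the B lineage markers Pax5 and Ebf1 also had no start region. A missing start region is therefore not evidence that a cell type is absent. A lower value can mean fewer cells with the region open or less opening per cell, and these cannot be told apart in libraries of many cells.

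Differences were tested in limma, in 1 fit of log2(RPPM + 1) to the 66177 regions. A region was called where its Benjamini-Hochberg adjusted p did not exceed 0.01 and it changed 2-fold or more. Log2 fold changes (log2FC) are on that scale, which understates changes of low values. Means are given ± SD over the libraries of a group, with n = 3 in C nB and C BMPC and n = 2 in C GCB. Every adjusted p below is from this limma fit unless another tool is named. Among C libraries, BMPC had 24 of the 91 regions more open than nB and 22 less open, which is 26.4% and 24.2% of them, against 18% and 20.1% of all regions. From nB to GCB, 10 members became more and 14 less accessible, against 14.2% and 8.47% of all regions. From GCB to BMPC, 20 were more and 11 less accessible, 22% and 12.1% of the members against 11.3% and 19.1% of all regions. The median log2 fold change of the members was -0.30 from nB to GCB, -0.08 from nB to BMPC and 0.30 from GCB to BMPC, and over all regions it was 0.05, 0.03 and -0.06. The genes differed widely in direction. At Jak1, 13 of 18 regions were called lower and 0 higher in BMPC than in nB, while Jak2 had 7 higher and 1 lower of 16 and Socs1 had 3 higher and 0 lower of 12.

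**Figure D1:**
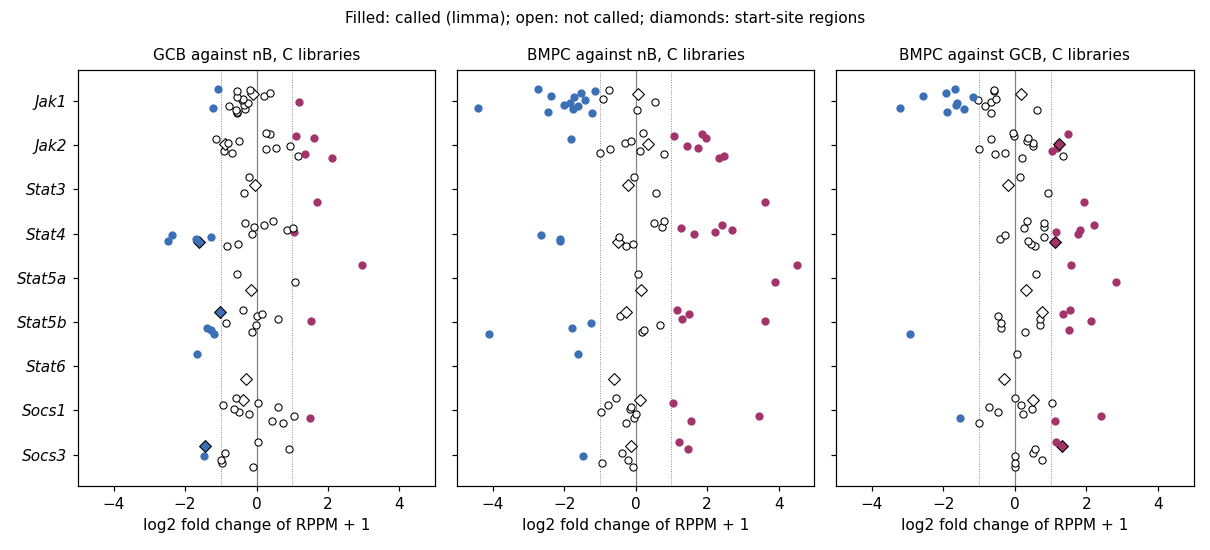
Log2FC on log2(RPPM + 1) of each of the 91 regions, by gene, for the 3 comparisons between cell types in C libraries, with called regions marked. From nB to BMPC the Jak1 regions lie below 0 apart from 3, with 13 of 18 called lower, whereas the Jak2 regions spread upward with 7 of 16 called higher.

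Jak1 encodes a kinase shared by the receptors of many cytokines, among them IL-2, IL-4, IL-6, IL-21 and interferons. The largest decrease was in an intron 72.8 kb inside the gene, at chr4:100864808-100865400 (mm9). It measured 27.5, 29.4 and 26.8 RPPM in the C nB libraries, 9.68 and 13.6 in C GCB and 0.390, 0.365 and 0.311 in C BMPC, where the libraries together held 7 reads. The groups did not overlap. Against nB the log2FC was -1.21 in GCB and -4.41 in BMPC (SE 0.21, adjusted p = 1.1e-15). KO libraries gave 33.4 and 34.2 in nB, 16.8 to 20.4 in GCB and 0.729 and 0.187 in BMPC.

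Other Jak1 regions were low in BMPC alone or fell in steps. In an intron, 10.6 kb from the start, the region at chr4:100926703-100927957 averaged 37.3 ± 4.6 RPPM in C nB, 43.6 ± 6.1 in C GCB and 6.58 ± 1.9 in C BMPC, with a log2FC of -2.36 against nB and -2.58 against GCB in BMPC. The region 33.3 kb upstream of the start, at chr4:100970883-100971481, averaged 15.8, 7.195 and 1.59 RPPM in the same order, with -2.75 from nB to BMPC. The Jak1 decreases reached from upstream of the gene to its introns, but did not include the region over the start. That region, at chr4:100937024-100938179, averaged 53.1 ± 6.2, 49.4 ± 6.4 and 55.0 ± 1.2 RPPM, and the intronic region 82.4 kb inside, at chr4:100855045-100855885, averaged 26.0 and 26.8 RPPM in C nB and C BMPC. The region called higher from nB to GCB was 47.9 kb inside, at chr4:100889666-100890224. It measured 2.68, 3.01 and 4.09 RPPM in C nB, 10.6 and 7.03 in C GCB and 4.55 to 5.84 in C BMPC, a log2FC of 1.19 (adjusted p = 0.0082). This call was lost, with adjusted p above 0.01 or a change below 2-fold, when any of 9 libraries was left out: each of the 3 C nB, both C GCB, C BMPC replicates 2 and 3, and both KO BMPC libraries. In KO its log2FC of 0.93 was not called.

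**Figure D2:**
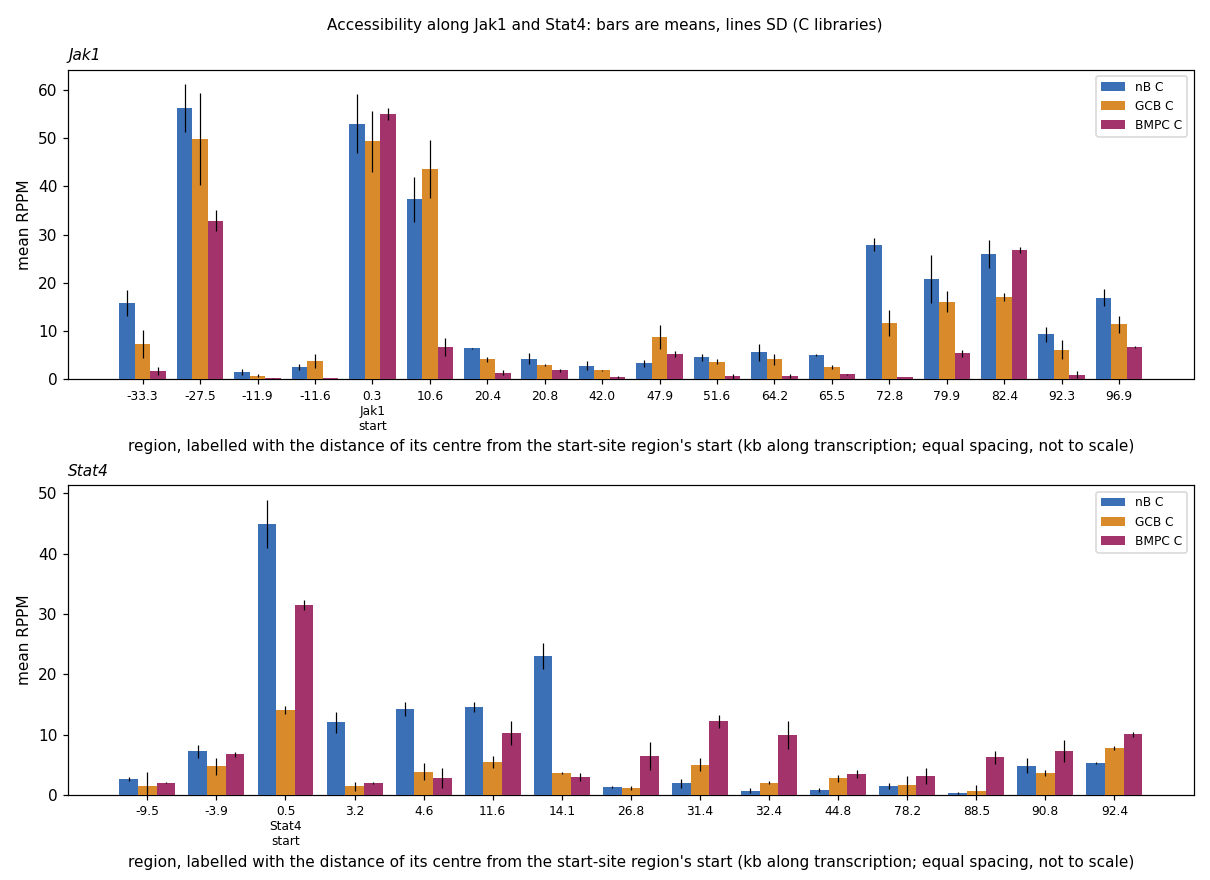
Mean RPPM of each region of Jak1 and Stat4 in C nB, GCB and BMPC, in order along transcription and equally spaced, with each label giving the distance from the gene start in kb, and with lines for the SD, drawn no lower than 0. The Jak1 start region stays near 50 RPPM in all 3 cell types while the intronic region 72.8 kb inside falls from 27.9 to 0.355, and in Stat4 the tall nB bars near the start give way to BMPC bars further inside.

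Jak2 encodes a kinase used by single-chain and beta-common receptors and, with JAK1, by the IFN-gamma receptor. Its increases lay upstream, outside genes, and in the body of the gene. The largest was 54.3 kb upstream, outside genes at chr19:29271836-29272278, with 0.487, 0.188 and 0.186 RPPM in C nB, 0.880 and 3.28 in C GCB and 5.85, 7.12 and 5.61 in C BMPC (2.48 from nB to BMPC, SE 0.44, adjusted p = 2.0e-05). The nB libraries held 4 reads there in all. Its neighbor 57.2 kb upstream at chr19:29268704-29269457 was already open in GCB, with 1.70 to 2.68 RPPM in C nB, 14.1 and 11.7 in C GCB and 12.6 to 16.4 in C BMPC, a log2FC against nB of 2.12 in GCB and 2.32 in BMPC. Nearer the start, the regions 6.58 kb and 6.25 kb upstream had log2FC values of 1.73 and 1.44 from nB to BMPC, from means of 0.144 and 0.126 RPPM in C nB. Inside the gene the regions at 18.7 kb and 19.5 kb had log2FC values of 1.62 and 1.09 from nB to GCB, and their differences between GCB and BMPC, 0.36 and -0.03, were not called. The decrease was in an intron 11.8 kb inside, at chr19:29338006-29338271, from 3.84 ± 1.1 RPPM in C nB to 0.364 ± 0.20 in C BMPC, a log2FC of -1.81 (adjusted p = 1.4e-04).

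Stat3 and Stat5a lie beside each other on chromosome 11 with Stat5b, and the largest increase of all 91 regions was here. The region at chr11:100758563-100760062 covers exon and intron sequence inside Stat3, 41.5 kb from its start, and counts under Stat5a because that start is nearer, at 37.5 kb. It measured 2.44, 3.96 and 4.09 RPPM in C nB, 34.3 and 31.9 in C GCB, and 99.8, 105.8 and 96.4 in C BMPC. The 3 groups were far apart, and the log2FC was 2.94 from nB to GCB, 1.58 from GCB to BMPC and, over both steps, 4.52 in BMPC against nB (SE 0.16, adjusted p = 2.7e-18). KO libraries followed the same order, with 3.62 and 2.56 in nB, 32.2 to 37.5 in GCB and 84.1 and 91.5 in BMPC.

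Inside Stat3 lay a pair of further regions that were closed in nB. The region over the 3′ end of the gene, at chr11:100749644-100750467, measured 1.22, 0.942 and 0.744 RPPM in C nB, 4.84 and 1.87 in C GCB and 26.0, 30.3 and 27.9 in C BMPC, a log2FC of 3.89 from nB to BMPC and 2.82 from GCB to BMPC. The region 34.5 kb inside, at chr11:100765869-100766835, measured 0.975 to 1.86 in C nB, 7.48 and 6.56 in C GCB and 27.7 to 31.8 in C BMPC (3.63 from nB to BMPC, adjusted p = 8.5e-13). Between them, the region at chr11:100754652-100755196 did not follow: its means were 9.96, 6.55 and 10.5 RPPM. The start regions of Stat3 and Stat5a were not called in any comparison of C libraries. Stat3 averaged 109 ± 6.2 RPPM in nB, 106 ± 8.9 in GCB and 93.4 ± 5.6 in BMPC, and Stat5a averaged 42.8 ± 2.5, 38.5 ± 6.5 and 48.1 ± 5.9.

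**Figure D3:**
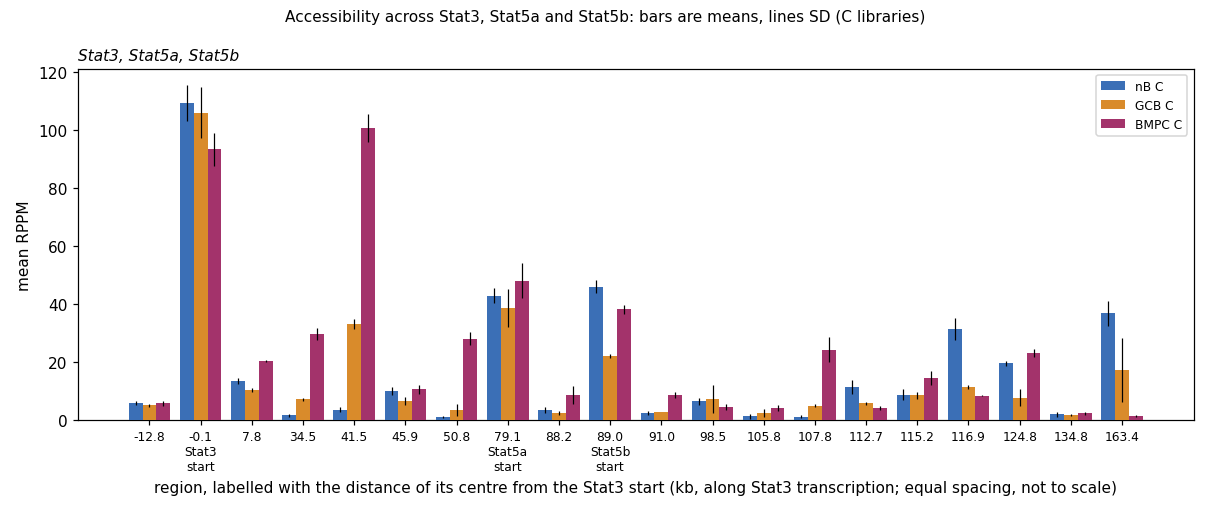
Mean RPPM of the regions of Stat5b, Stat5a and Stat3 on chromosome 11 in C nB, GCB and BMPC, equally spaced in the direction of Stat3 transcription and labelled with the distance from the Stat3 start in kb, with the SD as lines drawn no lower than 0. The region inside Stat3 reaches 101 RPPM in BMPC from 3.50 in nB, and at the Stat5b end the region nearest the start of Ghdc goes the other way, from 36.8 to 1.19.

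Stat5b, the paralog of Stat5a, had regions that changed in both directions. The region beyond its 3′ side at chr11:100636966-100637814, whose nearest start is that of Ghdc, measured 31.9, 38.1 and 40.4 RPPM in C nB, 25.1 and 9.37 in C GCB and 1.56, 0.912 and 1.09 in C BMPC. Its log2FC from nB to BMPC was -4.12 (SE 0.28, adjusted p = 1.2e-12), and the C GCB pools lay between the other cell types but far from each other. The intronic region at chr11:100692416-100693557 rose, from 1.71, 0.754 and 0.744 RPPM in C nB to 4.40 and 5.15 in C GCB and 20.7, 29.0 and 23.0 in C BMPC (3.63, adjusted p = 6.6e-12). Between these the table places a second start inside the gene, and the promoter region there, at chr11:100683656-100684219, averaged 31.4 ± 3.7 RPPM in C nB and 11.3 ± 0.78 in C GCB and stayed low in C BMPC at 8.38 ± 0.30, a log2FC of -1.78 from nB to BMPC.

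Stat4 encodes the main mediator of IL-12 signals in T and NK cells. From nB to GCB it had 5 regions called lower and 1 higher of 15. The region 14.1 kb inside, at chr1:52078930-52079537, measured 24.9, 20.7 and 23.6 RPPM in C nB, 3.52 and 3.75 in C GCB and 3.51, 2.19 and 2.96 in C BMPC, so nB stood alone (log2FC against nB -2.37 in GCB and -2.64 in BMPC, adjusted p = 5.7e-06 for the latter). The regions 3.2 kb and 4.6 kb inside behaved alike, with -2.48 and -1.69 from nB to GCB. Further inside, the direction turned. The region 32.4 kb inside, at chr1:52097148-52097810, measured 0.244, 1.1 and 0.744 RPPM in C nB, 2.199 and 1.87 in C GCB and 10.0, 7.48 and 12.2 in C BMPC (2.69 from nB to BMPC, adjusted p = 7.9e-08). Its neighbor 31.4 kb inside and a region 88.5 kb inside rose by 2.21 and 2.41 on the log2 scale from nB to BMPC.

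Stat6, which carries the IL-4 signal, had 2 regions. The region over its start, at chr10:127078858-127081298, averaged 128 ± 8.4 RPPM in C nB, 104 ± 6.3 in C GCB and 84.1 ± 1.8 in C BMPC. Its log2FC of -0.60 from nB to BMPC had an adjusted p of 6.2e-06 but was under 2-fold. The region 12.4 kb inside, at chr10:127092240-127092711, was called lower in both GCB and BMPC, with 5.60, 7.16 and 6.51 RPPM in C nB, 1.76 and 0.937 in C GCB and 2.47, 0.912 and 1.09 in C BMPC (-1.68, adjusted p = 2.3e-04, from nB to GCB). The C GCB values rest on 6 reads in all.

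Socs1 encodes an inhibitor that binds JAK kinases directly. Its largest increase was 33.1 kb from the start, outside genes at chr16:10752167-10752942. The region measured 0.731, 0.565 and 0.186 RPPM in C nB, 7 reads in all, then 2.199 and 1.87 in C GCB and 17.0, 14.2 and 14.5 in C BMPC, a log2FC of 3.46 (SE 0.30, adjusted p = 1.6e-10) from nB to BMPC and 2.42 from GCB to BMPC. The groups did not overlap. Its central 300 bases, chr16:10752405-10752704 on the plus strand, are shown because they hold 2 STAT palindromes, in capitals.
Socs1, 33.1 kb from the start: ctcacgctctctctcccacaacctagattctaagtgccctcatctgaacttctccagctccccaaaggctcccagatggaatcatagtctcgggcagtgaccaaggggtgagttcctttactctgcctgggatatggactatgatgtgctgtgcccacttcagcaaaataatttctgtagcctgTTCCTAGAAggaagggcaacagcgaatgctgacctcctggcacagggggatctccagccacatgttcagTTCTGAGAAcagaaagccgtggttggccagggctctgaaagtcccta
The region in the last exon of the neighboring gene Clec16a, at chr16:10744386-10744642, was higher in C GCB than in both other cell types. It measured 1.22, 1.1 and 1.3 RPPM in C nB, 5.28 and 5.15 in C GCB and 1.04, 0.912 and 1.56 in C BMPC (1.49 from nB to GCB and -1.53 from GCB to BMPC, adjusted p = 3.7e-04 for the latter). KO GCB libraries measured 4.195 to 9.55 there. Another region, at the 3′ end of Clec16a 44.2 kb from the Socs1 start, averaged 4.40 RPPM in C nB, 5.90 in C GCB and 14.2 in C BMPC, with a log2FC of 1.56 from nB to BMPC. Clec16a names the transcript there, while the start of Socs1 is the nearest start.

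Socs3 encodes the inhibitor that acts mainly on receptors of the gp130 family, such as that of IL-6. Over its start, at chr11:117830271-117831615, the values were 48.2, 31.5 and 36.7 RPPM in C nB, 13.2 and 13.6 in C GCB and 33.4, 33.0 and 37.5 in C BMPC. GCB stood below both other cell types without overlap, with a log2FC of -1.45 from nB to GCB (SE 0.20, adjusted p = 1.1e-06) and 1.31 from GCB to BMPC (adjusted p = 3.0e-06), while nB and BMPC overlapped (-0.14, not called). The 200 bases from 300 to 101 before the start, chr11:117830781-117830980 read on the minus strand, are shown because they hold a STAT palindrome, in capitals, 154 to 146 bases before the start. These positions count from the start in the deposited annotation, which matched no transcript start of the GENCODE annotation exactly. Among the 300-base windows upstream of 11094 starts covered by a region, 6.79% held this palindrome, and that of Socs1 did not.
Socs3 upstream: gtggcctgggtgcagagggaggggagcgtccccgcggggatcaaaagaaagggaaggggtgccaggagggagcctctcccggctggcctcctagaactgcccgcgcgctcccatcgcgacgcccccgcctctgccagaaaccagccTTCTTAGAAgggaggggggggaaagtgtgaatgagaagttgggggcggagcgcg
The region 9.2 kb downstream, at chr11:117821122-117821857, was lower in GCB and stayed low in BMPC, with 30.9, 32.2 and 31.5 RPPM in C nB, 13.6 and 8.43 in C GCB and 11.3, 11.1 and 9.97 in C BMPC (log2FC against nB -1.47 in GCB and -1.46 in BMPC, adjusted p = 1.0e-05 and 8.0e-07). The region 3.6 kb downstream, at chr11:117826897-117827272, averaged 5.32 ± 1.7 RPPM in C nB, 10.7 ± 2.1 in C GCB and 16.2 ± 2.1 in C BMPC, and rose by 1.47 on the log2 scale from nB to BMPC (adjusted p = 1.7e-05). Upstream, 6.9 kb from the start, a region averaged 7.89, 8.22 and 19.4 RPPM and rose by 1.21 from nB to BMPC.

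For each gene, 1 region over or nearest a listed start was taken, and the one with the highest mean where several lay over starts. The listed starts of Stat3, Stat5b and Socs3 matched no GENCODE transcript start exactly. From nB to GCB 3 of these 9 were called lower and 0 higher: Stat4 (-1.60, adjusted p = 9.2e-08), Socs3 and Stat5b (-1.03, adjusted p = 1.0e-06). The Stat5b call ended when C nB replicate 1 (-0.99) or C GCB replicate 1 (just under 2-fold) was left out. From GCB to BMPC, Socs3, Jak2 (1.23, adjusted p = 6.3e-07) and Stat4 (1.11, adjusted p = 1.5e-05) were called higher. From nB to BMPC 0 were called by limma. Of all 11115 regions over a gene start, 7.56% were called higher and 6.73% lower from nB to GCB, and 65.7% had a negative log2FC, with a median of -0.22. From GCB to BMPC 11.1% of the 11115 were called higher and 4.89% lower, and 27.9% had a negative log2FC, with a median of 0.33. The shares called higher and lower from nB to BMPC were 9.23% and 3.96%. All 9 start regions here were below 0 from nB to GCB, but quantile normalization turned Jak1, Stat3 and Stat5a above 0. With scaling that left out mitochondrial reads, 8 were lower and 1 higher. Jak2 measured 77.7, 65.0 and 64.2 RPPM in C nB, 38.3 and 35.1 in C GCB and 86.8, 89.6 and 86.0 in C BMPC, and Stat4 measured 40.7, 48.6 and 45.4, then 13.6 and 14.5, then 30.8, 31.4 and 32.4. Both had their lowest values in GCB with no overlap. Socs1 averaged 72.2 ± 7.3 RPPM in C nB, 55.4 ± 13 in C GCB and 78.2 ± 3.2 in C BMPC, and was not called.

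**Figure D4:**
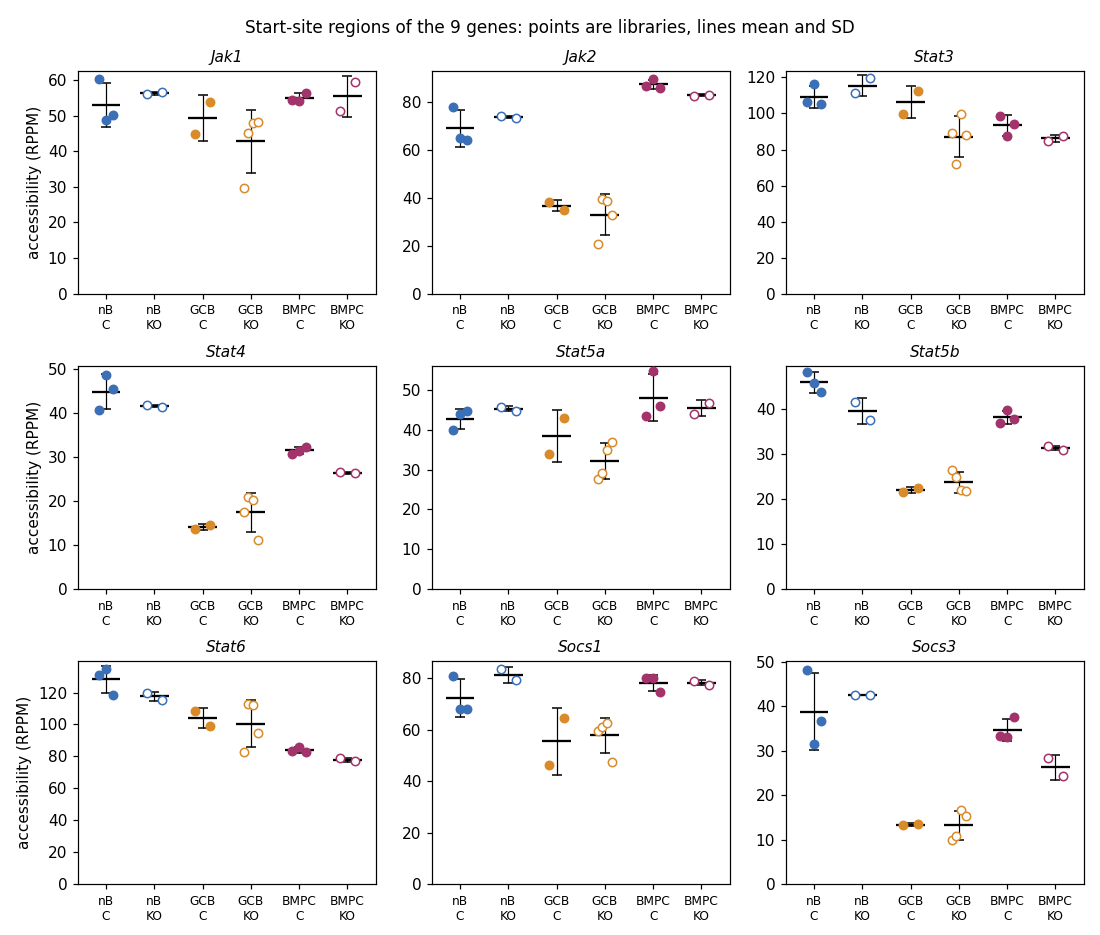
RPPM of the start region of each of the 9 genes in every library (points, filled for C and open for KO) of the 6 groups, with lines for the mean and SD. Jak2, Stat4, Stat5b and Socs3 dip in the GCB groups of both genotypes, whereas Jak1, Stat3 and Stat5a span at most 0.57 on log2(RPPM + 1) between their group means.

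Socs3, Stat4 and Jak2 had the start regions with the widest range of group means, 1.65, 1.60 and 1.42 on log2(RPPM + 1). Over the 16 libraries, the start regions of other genes whose pattern was most like that of Socs3 were those of Aptx, Hif1an and Med7, each at a Pearson's r of 0.98. For Stat4 they were Stk24 (0.97), Prdm10 and Arhgef1 (0.96 each), and for Jak2 they were Tgfbrap1, Crtc3 and Prrc2b (0.98 each). These correlations describe libraries that share cell type and depth, and they were picked as the highest among all start regions.

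In KO libraries the same comparisons called 25 members from nB to GCB, 38 from nB to BMPC and 37 from GCB to BMPC, against 26.3%, 35.3% and 32% of all regions. From nB to BMPC, 36 regions were called in the same direction in both genotypes, which is 78.3% of the 46 called in C and 94.7% of the 38 called in KO. From nB to GCB this held for 18 regions (75% of 24 and 72% of 25), and from GCB to BMPC for 25 (80.7% of 31 and 67.6% of 37). The shares over all regions were 79.9% of C and 86.3% of KO calls from nB to BMPC, 76.9% and 66.5% from nB to GCB, and 77.7% and 73.9% from GCB to BMPC, close to those of the members. In none of the 3 comparisons was a member called in opposite directions. At Jak1, KO libraries had 12 regions called lower and 0 higher from nB to BMPC. The count from nB to GCB in KO fell to 15 without KO nB replicate 2.

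Between genotypes, limma called 0 of the 91 regions in nB, 0 in GCB and 0 in BMPC, where 0%, 0.0317% and 0.104% of all regions were called. At an unadjusted p under 0.05 there were 0 members in nB, 8 in GCB (6 higher and 2 lower in KO) and 7 in BMPC (3 higher and 4 lower). These are 8.79% of the members in GCB and 7.69% in BMPC, against 1.67% of all regions in nB, 11.8% in GCB and 9.55% in BMPC, so the shares were near or below those of all regions. On recovered reads DESeq2 called 0 members in each cell type, and edgeR's quasi-likelihood and likelihood ratio tests each called 1, in BMPC. The shares of all regions that these count tests called are not given here. The 1 call by edgeR therefore cannot be read as a trait of the members, and the limma shares are no measure for it. By limma, no member was called in the test that the genotype difference differs between cell types. This held for BMPC against nB, BMPC against GCB and GCB against nB. With so few libraries per group, 0 calls by limma does not show that accessibility is equal. Over all regions in BMPC, the paper reports many more differences by edgeR at the same limits, most of them more accessible in KO.

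The member with the smallest p between genotypes in BMPC was a region 23.5 kb upstream of Jak2, at chr19:29302409-29303168. It measured 11.4, 7.66 and 7.94 RPPM in C BMPC and 16.03 and 19.8 in KO BMPC, with no overlap. The log2FC was 0.93 (SE 0.21, adjusted p = 0.031), short of both limits. In nB it measured 16.1 to 20.2 in C and 18.3 and 23.5 in KO, and in GCB 10.3 and 11.9 in C and 10.2 to 13.2 in KO, so KO BMPC lay near nB. The genotype difference in BMPC exceeded that in GCB by 0.86 (SE 0.29, adjusted p = 0.38) and that in nB by 0.78 (SE 0.30, adjusted p = 0.74). The call limit was not reached under any of 27 alternatives, whose log2FC ran from 0.71 to 1.1 and adjusted p from 2.8e-04 to 0.54. The whole region holds 11 CpGs. Its central 300 bases, chr19:29302639-29302938 on the plus strand, are shown with a STAT palindrome and the core CAGCTG of the B lineage factor E2A in capitals.
Jak2, 23.5 kb upstream: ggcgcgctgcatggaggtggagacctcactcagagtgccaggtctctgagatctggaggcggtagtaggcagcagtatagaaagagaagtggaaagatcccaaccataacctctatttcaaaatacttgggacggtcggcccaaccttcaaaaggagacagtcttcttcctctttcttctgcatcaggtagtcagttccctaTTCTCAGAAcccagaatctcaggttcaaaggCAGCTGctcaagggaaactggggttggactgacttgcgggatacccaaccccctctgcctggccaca

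The region called by edgeR alone lay 13.3 kb from the start of Socs1, outside genes at chr16:10772166-10772542. C BMPC measured 4.42, 3.28 and 3.43 RPPM and KO BMPC 9.96 and 7.84, without overlap, and the other groups measured 6.14 to 9.26 in C nB, 8.07 and 8.55 in KO nB, 3.08 and 3.28 in C GCB and 2.203 to 8.91 in KO GCB. By limma the log2FC was 1.07 (SE 0.35, adjusted p = 0.17), which was not called. It was 1.19 by edgeR's quasi-likelihood test (adjusted p = 0.0023) and likelihood ratio test (adjusted p = 2.7e-04) and 1.21 by DESeq2 (adjusted p = 0.019, over the limit), and adjusted p ran from 2.7e-04 to 0.77 over 27 alternatives. This region also holds 11 CpGs, and its central 300 bases, chr16:10772205-10772504 on the plus strand, hold 2 STAT palindromes in capitals.
Socs1, 13.3 kb from the start: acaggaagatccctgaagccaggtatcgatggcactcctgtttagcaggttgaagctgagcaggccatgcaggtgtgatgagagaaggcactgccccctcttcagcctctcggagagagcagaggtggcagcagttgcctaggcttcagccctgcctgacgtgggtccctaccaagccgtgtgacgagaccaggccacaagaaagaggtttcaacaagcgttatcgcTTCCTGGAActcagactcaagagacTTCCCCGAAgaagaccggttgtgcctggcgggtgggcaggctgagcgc

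In GCB the smallest p belonged to the Stat6 region 12.4 kb inside the gene, named here after its values were seen. The C pools measured 1.76 and 0.937 RPPM and the KO pools 3.30, 5.09, 4.38 and 4.89, a log2FC of 1.22 (SE 0.32, adjusted p = 0.11) that was not called. In nB the smallest p was 0.096, at a region 11.6 kb upstream of Jak1 (-0.58). The remaining genes had smaller differences in BMPC at their region with the smallest p: 0.90 in a Stat4 intron (adjusted p = 0.27), -0.89 in a Stat5b intron (adjusted p = 0.39), -0.55 in a Jak1 intron (adjusted p = 0.40), -0.39 at the Socs3 start (adjusted p = 0.55), -0.32 in Stat3, -0.20 in the region counted under Stat5a and -0.11 at the Stat6 start. All KO BMPC libraries lay above all C BMPC libraries in 10 of the 91 regions and below them in 21. These are 11% and 23.1% of the members, against 20% and 13.8% of all regions. In nB these counts were 11 and 9 (12.1% and 9.89%, against 9.38% and 11% of all regions), and in GCB 7 and 4 (7.69% and 4.4%, against 7.47% and 5.52%). The difference between these shares was not tested.

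**Figure D5:**
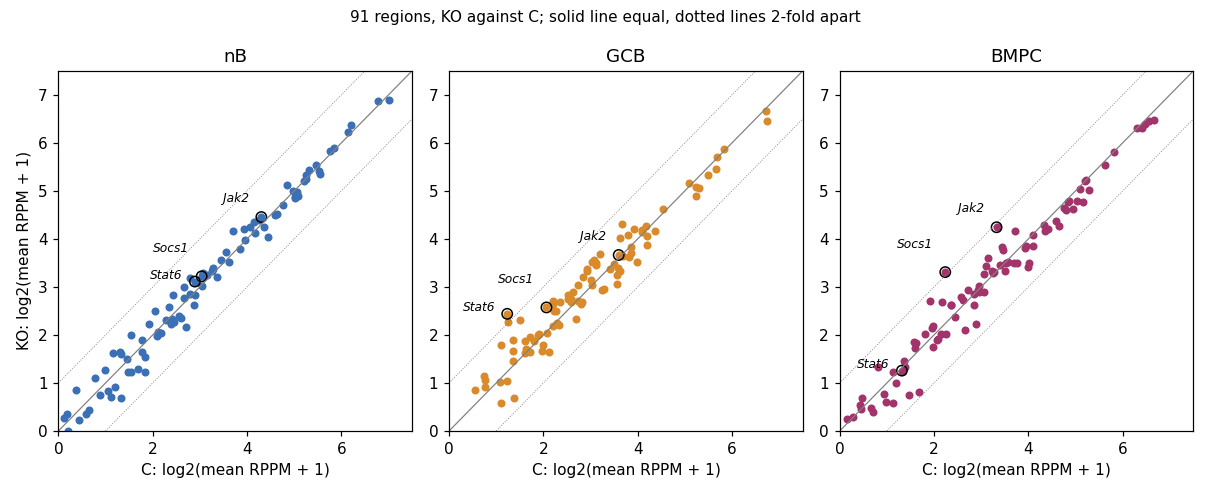
Mean accessibility of the 91 regions in KO (vertical axis) against C (horizontal axis) libraries of nB, GCB and BMPC, both as log2(mean RPPM + 1), with a solid line where they are equal and dotted lines 2-fold apart. Most regions follow the solid line, and the circled Jak2, Socs1 and Stat6 regions, the first 2 above it in BMPC and the last in GCB, were not called by limma.

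Sequence motifs were compared as a property that did not choose the members. The STAT palindrome was found in the central 300 bases of 13 members (14.3%), against 8.99% of 65893 regions on named chromosomes. The form with 4 bases between TTC and GAA, which STAT6 can bind, was found in 10 (11%) against 7.25%. The E2A core lay in 22 (24.2%) against 20.6%, the core GGAAGT of PU.1, an Ets family factor of B and myeloid cells, in 36 (39.6%) against 30.3% and the octamer ATGCAAAT, bound by Oct-2, in 2 (2.2%) against 3.96%. All were searched on both strands, and a match is not evidence of binding. Of the 13 members with a STAT palindrome, 8 belonged to Socs1 or Socs3, and the others to Jak1, Jak2 and Stat4. From nB to BMPC in C, 6 of these 13 were called higher and 3 lower. Of the 22 members with an E2A core, 6 were called higher and 5 lower. For the 36 with a PU.1 core these counts were 5 and 12. Of all 91 members, 24 were called higher and 22 lower, against 18% and 20.1% of all regions. From nB to GCB the counts were 1 and 2 for the STAT palindrome, 3 and 2 for E2A and 4 and 10 for PU.1. All members had 10 and 14. From GCB to BMPC the same counts were 3 and 0, 6 and 1, and 6 and 6, with 20 and 11 for all members. Differences between these shares were not tested.

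Other genes of the pathway were counted from lists that cover every region assigned to each gene. From nB to BMPC in C, the remaining JAK and STAT genes had 7 regions higher and 1 lower of 22, the remaining SOCS genes 8 higher and 4 lower of 30, and other inhibitors of the pathway 20 higher and 7 lower of 68. Receptors that signal through JAKs had 29 higher and 53 lower of 146, and STAT target genes 40 higher and 27 lower of 148. Over all regions 18% were called higher and 20.1% lower in this comparison, and differences from these shares were not tested. Limma called 0 regions of these 5 lists between genotypes, against 0% of all regions in nB, 0.0317% in GCB and 0.104% in BMPC. The largest increases in the first and the third of these lists were in Tyk2, a kinase used with JAK1 by interferon receptors, and in Ptpn11, which encodes the phosphatase SHP-2. The Tyk2 region at chr9:20929837-20931034 averaged 2.72 ± 0.24 RPPM in C nB, 4.07 ± 0.46 in C GCB and 31.3 ± 2.3 in C BMPC, a log2FC of 3.12 from nB to BMPC. The Ptpn11 region at chr5:121599076-121599755 averaged 0.457 ± 0.27, 2.05 ± 0.41 and 26.2 ± 0.95 RPPM, a log2FC from nB to BMPC of 4.24. At their starts, Socs2 averaged 20.2 RPPM in C nB, 13.7 in C GCB and 55.5 in C BMPC, a log2FC of 1.41 from nB to BMPC and 1.95 from GCB to BMPC. The start of Cish, another SOCS family member, rose by 1.08 from GCB to BMPC. Among the receptors, Il21r, the receptor for the follicular helper cytokine IL-21, averaged 39.7, 54.8 and 9.54 RPPM in the same order and fell by 1.96 from nB to BMPC and by 2.41 from GCB to BMPC. Il10ra fell by 1.69 from nB to GCB and Il2rb, a chain of the IL-2 and IL-15 receptors, rose by 1.87 between the same cell types. Jak3, the kinase of the common gamma chain, was lower in GCB than in nB (-1.09) and higher in BMPC than in GCB (1.58). Of the targets, Bcl6, the repressor that germinal center B cells depend on, fell by 1.39 at its start region from nB to GCB, and Prdm1, which encodes the plasma cell regulator Blimp-1, rose by 1.05 from GCB to BMPC.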

How the data were processed

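ATAC-seq libraries of sorted nB, GCB and BMPC were compared. Per the labels and the study's methods, the authors trimmed reads, used Bowtie to map them to mm9, called peaks per sample with MACS2 and merged these into a union. The submitters' processing notes give Bowtie 1.1.1 and MACS2 2.1.0.20140616, and the methods give other versions of both. They deposited, for each region and library, its reads scaled to all reads in regions of that library (RPM, here RPPM). The deposited log2 fold changes and p-values of 9 comparisons were not used. There were 17 samples by the labels, and 1 KO BMPC sample had no column and was not analysed here.

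Samples were grouped by cell type and genotype in the labels. All values were whole multiples of 1 read (100% at a tolerance of 1e-06), so reads were recovered for count tests. Floors cover counting error only. limma 3.58.1 in R 4.3.3 fitted log2(RPPM + 1) with 1 mean per group for 16 libraries and a variance trend. Benjamini-Hochberg adjustment ran over 66177 regions, and a region was called where this p did not exceed 0.01 and it changed 2-fold or more. P-values rest on 1 spread per region, pooled over the libraries (single mice or pools) within all 6 groups, not on the compared groups alone. GCB, with the largest counting error, thus share it with nB and BMPC. Alternatives were pseudocounts of 0.1 and 5 RPPM, other scalings, filters, designs and call limits, each library left out, a block for GCB pools, edgeR 4.0.16 and DESeq2 1.42.0 on recovered reads. The fit was tested on simulated data.

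The genes and lists were chosen with earlier results of these data known. Named by rule were, per gene, the region nearest its start, the called regions with the largest change in each direction between C cell types, and the region with the smallest p between BMPC genotypes. Other regions, and the examples from the lists, were named after their values were seen. The same pool names in C and KO GCB (F2 and M1) do not mark shared mice. Sequences are from the NCBIM37 (mm9) assembly, against which the ends of 65893 regions on named chromosomes were checked.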

Additional observations from a re-analysis of the deposited data

Results flagged for a closer look

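The start region of Jak1 in KO GCB was the only named region with a library far from the rest of its group, among 29 named regions tested in the group of 4 libraries. Replicate 1 measured 29.7 RPPM, against 45.2 to 48.2 RPPM in the other 3, so its gap was 0.835 of the whole range, over Dixon's 95% critical value for 4 samples. Chance alone passes this limit in about 1 of 20 groups. The same library had the fewest reads of all, 907959, and whether its depth plays a part was not tested.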

How the results depend on the processing

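Across 28 settings, 313 alternative counts of called members stayed within 1.5 times the main count and 9 did not. With 5 RPPM as the pseudocount, which damps differences at low values, there were fewer calls. It reduced the members called to 10 from nB to GCB, 24 from nB to BMPC and 13 from GCB to BMPC in C, and to 13, 19 and 13 in KO. edgeR's quasi-likelihood and likelihood ratio tests each called 1 member between BMPC genotypes, the Socs1 region 13.3 kb from the start, where limma called 0. Leaving out each library in turn gave 16 to 26, 41 to 46 and 23 to 34 calls in C and 15 to 27, 26 to 42 and 27 to 37 in KO, and 0 for every genotype and interaction comparison. Of 1405 alternative values of named regions, 1376 kept their side of the threshold, 23 lost and 2 gained a call, and 4 moved by more than their spread. No called value changed sign. Uncalled values near 0 did so in some settings, such as the Jak1 start region from nB to GCB in C (-0.23 to 0.10). Besides Jak1 at 47.9 kb, which lost its call in 12 settings, Stat5b at its start (5 settings) and Stat4 at its start from GCB to BMPC (0.94 with a pseudocount of 5 RPPM and 0.99 with quantile normalization) did so. Lost in 1 setting each were Jak2 at its start from GCB to BMPC (0.97, quantile normalization) and, with a pseudocount of 5 RPPM, Jak2 at 11.8 kb (-0.71), Stat6 at 12.4 kb (-0.85) and the Clec16a exon near Socs1 (-0.73). Quantile normalization also moved the median log2 fold change of all regions from 0.05 to -0.06 from nB to GCB and from -0.06 to 0.09 from GCB to BMPC in C, and the split of members in KO from 10 higher and 15 lower to 5 and 15 (nB to GCB) and from 19 and 18 to 24 and 13 (GCB to BMPC). Deviations of the same-named GCB pools from their group means correlated at 0.0363 for F2 and 0.0638 for M1. The deviations of the 2 C pools mirror each other, so these values cannot show whether the names mark a shared batch. A replicate block on these names called 0 members between genotypes. Regions under the floor of 3 reads, up to 3.30 RPPM in the shallowest GCB library, cannot show small differences.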
